A study of Mus musculus with 6 samples.

Results

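Cells of the mouse aorta that carried cardiac muscle transcripts were selected from the 6 single-cell libraries by raw UMIs, the unique molecular identifiers that count individual RNA molecules. A cell was selected when Myh6 and Tnnt2 together had at least 5 UMIs and Ptprc and Pecam1, which mark leukocytes and endothelium, had 0. Cells had to have at least 300 detected genes and under 20% of their UMIs from mitochondrially encoded (mt-) genes. The rule found 1112 cells among 59413 that passed these limits, and the selection rests on measured values, so the levels of Myh6 and Tnnt2 given for them describe the choice and are no finding. The data went against the working name cardiomyocyte-like for most of them: 845 of the 1112 cells (76.0%) also met the rule for smooth muscle, at least 5 UMIs of Myh11, Cnn1 and Lmod1 together. These 845 are called smooth muscle-positive selected cells here, and the other 267 smooth muscle-low selected cells.

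The aortas came from C57B/6J mice aged 18 weeks, 3 samples labelled control and 3 labelled high-fat diet, with no transgene or deletion named and no diet composition or duration given in the sources used here. The tissue was digested with collagenase, red cells were lysed, and 3′ libraries were made in droplets. Whether the samples came from separate mice is not given in the labels, so p-values below measure the spread between these samples. Samples held 41388034 to 83886418 UMIs in all, with a median of 4019 to 6000 per kept cell, and 2051 of 60528 distinct barcodes (3.39%) occurred in more than 1 sample, 0 of them as a selected cell in more than 1.

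Cardiomyocytes contract through sarcomeres in which the motor myosin heavy chain (Myh6 in the adult mouse heart) pulls on cardiac actin (Actc1), under the control of the troponin complex (Tnnt2, Tnni3, Tnnc1) and of calcium released from the sarcoplasmic reticulum. Atrial cells are set apart by their own light chains, Myl7 and Myl4, by sarcolipin (Sln), a regulator of the calcium pump, and by the hormone precursor Nppa. Sleeves of atrial-type heart muscle extend along veins that join the heart, and the root of the aorta borders both atrium and ventricle. Tnnt2 and Actc1 are less strict markers than Myh6, since Actc1 is an actin that other muscle can use.

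Myh6 and Tnnt2, which the rule used, and the further marker Actc1 lie on different chromosomes of GRCm38. Myh6 (ENSMUSG00000040752) is at chr14:54941921-54966927 on the minus strand, where it overlaps Mir208a and an antisense gene model. Tnnt2 (ENSMUSG00000026414) is at chr1:135836354-135852260 on the plus strand. Actc1 (ENSMUSG00000068614) is at chr2:114047282-114053548 on the minus strand and overlaps an antisense gene. Myl7 (ENSMUSG00000020469), the atrial light chain gene that stood highest by ratio in the smooth muscle-low cells, is at chr11:5896637-5898782 on the minus strand. Because UMIs of overlapping genes may be shared and Myh6 has a close copy in Myh7, these counts carry that uncertainty.

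The promoters of the rule genes Tnnt2 and Myh6, and of Myl7 and Actc1, are shown as background. Each sequence is the 250 bases before a RefSeq start in GRCm38, written in the direction of transcription, with CATTCCT (the binding letters of TEAD factors, known from cardiac troponin promoters) or a CArG box (the binding site of serum response factor, used in cardiac and smooth muscle genes) in capitals. A capital AGGAATG is CATTCCT on the other strand.
Tnnt2, chr1:135836084-135836333, plus strand: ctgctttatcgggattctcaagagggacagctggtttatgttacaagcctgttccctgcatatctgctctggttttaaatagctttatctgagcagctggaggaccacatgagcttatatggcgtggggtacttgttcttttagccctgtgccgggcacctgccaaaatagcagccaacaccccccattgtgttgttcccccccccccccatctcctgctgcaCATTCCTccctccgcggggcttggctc
Myh6, chr14:54966608-54966857, minus strand: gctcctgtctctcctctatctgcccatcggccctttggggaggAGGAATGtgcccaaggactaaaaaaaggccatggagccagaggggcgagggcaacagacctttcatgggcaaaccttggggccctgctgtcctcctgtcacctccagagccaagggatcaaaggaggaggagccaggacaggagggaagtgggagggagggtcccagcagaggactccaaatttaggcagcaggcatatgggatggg
Myl7, chr11:5898783-5899032, minus strand: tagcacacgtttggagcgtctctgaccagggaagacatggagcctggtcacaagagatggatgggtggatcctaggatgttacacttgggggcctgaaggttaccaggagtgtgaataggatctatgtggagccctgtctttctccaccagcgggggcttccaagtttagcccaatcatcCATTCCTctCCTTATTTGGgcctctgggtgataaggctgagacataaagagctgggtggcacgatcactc
Actc1, chr2:114052876-114053125, minus strand: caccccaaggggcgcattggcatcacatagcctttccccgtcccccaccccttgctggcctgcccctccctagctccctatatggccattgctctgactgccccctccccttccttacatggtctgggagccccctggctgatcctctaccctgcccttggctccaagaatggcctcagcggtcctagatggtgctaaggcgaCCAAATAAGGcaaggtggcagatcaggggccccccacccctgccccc

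CATTCCT, searched on both strands, lay in 7 of 33 cardiomyocyte-list promoters with a sequence (21.2%), in 1 of 13 smooth muscle-list promoters and in 1205 of all 27025 (4.46%). The CArG box lay in 4 of the 33 (12.1%), Actc1, Ldb3, Myl3 and Myl7, and in 376 of all promoters (1.39%). TATAAA lay in 4 of the 33 (12.1%) and in 3491 of all (12.9%). Myl7 held CATTCCT and a CArG box next to each other, whereas Tnnt2 and Myh6 held only the first of these letters in the printed window and Actc1 only the second. The window before another RefSeq start of Tnnt2 (chr1:135836739-135836988) held 0 of either, and the counts used the printed one. A match describes letters and is not a measured binding site.

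The selected cells were a range with a long tail of strong expressers and not one uniform class. Of the 1112, 637 had 0 Myh6 UMIs, 247 had 1, 181 had 2 to 4 and 47 had 5 or more, so most entered through Tnnt2 alone. Smooth muscle-positive cells had a median of 7 Tnnt2 UMIs, 67.8% of them had 0 Myh6 UMIs, and 99.8% had Myh11, the smooth muscle myosin. Smooth muscle-low cells had a median of 13 Tnnt2 UMIs, 76.0% had Myh6, 84.3% had Actc1 and 37.5% had Myh11. The smooth muscle-low cells were also the smaller libraries, with a median of 3630 UMIs and 1375 genes against 8601 UMIs and 2818 genes.

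Cardiac transcripts that the rule did not use, most of them atrial, divided the selected cells in the same way. The atrial share is here the summed share of Myl7, Myl4, Sln, Nppa and Tnni3. Of these, Tnni3, the cardiac inhibitory troponin, is not on the atrial list. The atrial share had a median of 2.40% of all UMIs in smooth muscle-low cells. It was 0.0648% in smooth muscle-positive cells, near the 0.0417% in other smooth muscle-rule cells and the 0.0196% in B cell-rule cells (Cd79a of at least 3 UMIs), which should lack these genes. A share of at least 1% was found in 161 of 267 smooth muscle-low cells (60.3%) and in 11 of 845 smooth muscle-positive cells. By sample, control 1 to 3 held 9, 33 and 16 of the 161 and high-fat diet 1 to 3 held 83, 17 and 3, so every sample had some. The other 106 smooth muscle-low cells were under 1%, and 72 of these (67.9%) had at least 10 UMIs of the fibroblast genes Dcn, Col1a1 and Lum together, against 16 of the 161. So did 54.1% of smooth muscle-positive cells and 46.0% of the cells that met neither rule. Median depth was 5920.5 UMIs in the 106 cells and 2758 in the 161, and its part in these counts was not tested.

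**Figure D1:**
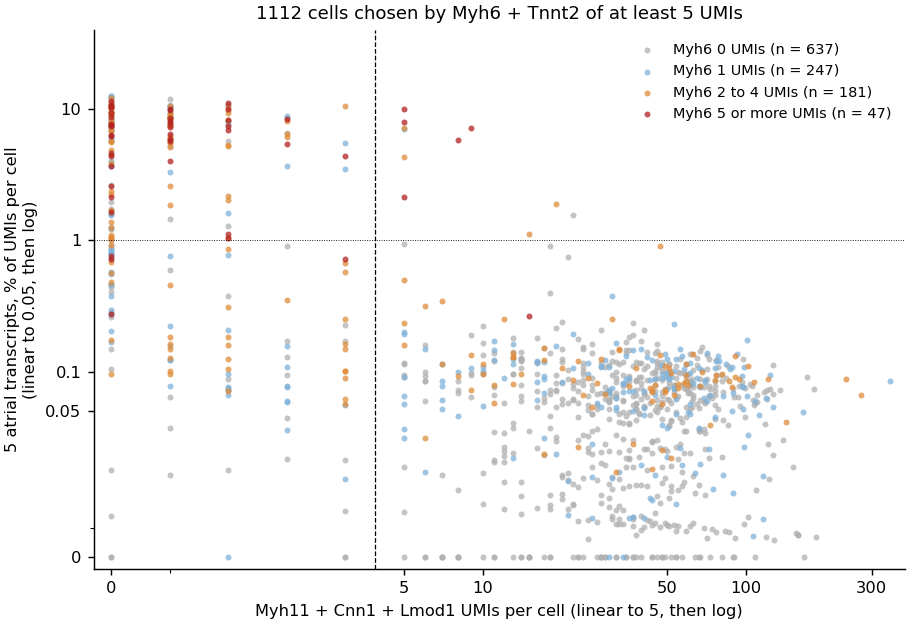
Each point is 1 of the 1112 selected cells, placed by its UMIs of the smooth muscle-rule genes and its atrial share, and coloured by Myh6 UMIs. The atrial share is the share of UMIs from Myl7, Myl4, Sln, Nppa and Tnni3, of which Tnni3 is not on the atrial list. The 845 smooth muscle-positive cells lie mostly near the 0.0648% median, and 161 of the 267 kept smooth muscle-low cells lie at 1% or more, above the dotted line.

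The edge of the rule lay inside the mixed part of this range. Cells with exactly 3 and 4 UMIs of Myh6 and Tnnt2, just outside, numbered 860 and 420, and 64.2% and 76.7% of them met the smooth muscle rule. Cells with exactly 5, 6 and 7 UMIs numbered 228, 144 and 105, of which 79.4%, 83.3% and 86.7% met it. At the edge of the smooth muscle rule, selected cells with 3, 4, 5 and 6 UMIs of its genes numbered 23, 23, 24 and 12, with median atrial shares of 0.171%, 0.150%, 0.138% and 0.0853%. The medians on both sides of this edge were thus far below the 2.40% of all smooth muscle-low cells, whose quartiles were 0.258%, 2.40% and 7.92%. Of the 1112 selected cells 172 had an atrial share of at least 1%, and 122 had at least 5%. The split is a fixed cut on UMIs, and whether the cells form a continuous scale was not tested.

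Levels are given as CPM, a gene's count per 1000000 UMIs of the summed cells, for the samples in the order control 1, 2, 3 and high-fat diet 1, 2, 3. High-fat diet 3 had only 5 smooth muscle-low cells and 1 smooth muscle-positive cell, so means ± SD cover the 5 samples with at least 10 cells. Tnnt2 in smooth muscle-low cells was 6633, 4579, 5796, 3700, 5261 and 2595 CPM (5194 ± 1123, SD, n = 5). In smooth muscle-positive cells Tnnt2 was 1202, 1709, 1489, 1425, 1259 and 3150 CPM (1417 ± 201, SD, n = 5), the last from 1 cell. Other smooth muscle-rule cells, 15889 in all, had Tnnt2 at 139, 71.5, 39.0, 202, 279 and 12.0 CPM, which the rule forced to be lower. In the remaining 42412 cells of the aorta Tnnt2 was 128, 32.7, 51.2, 136, 94.5 and 11.5 CPM. High-fat diet 3, with the fewest selected cells, had the lowest Tnnt2 in both of these groups.

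Myh6, the motor of the cardiac sarcomere, was highest in the smooth muscle-low cells of every sample. It was 480, 1071, 789, 837, 729 and 175 CPM there (781 ± 212, SD, n = 5), against 46.4, 10.9, 100, 106, 85.4 and 0 CPM in smooth muscle-positive cells (69.8 ± 40.3, SD, n = 5). Other smooth muscle-rule cells had Myh6 at 18.6, 2.98, 4.87, 33.2, 43.2 and 1.80 CPM, and B cell-rule cells at 13.7, 7.72, 8.24, 90.9, 21.6 and 5.08 CPM. The ranges of these last groups overlapped.

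Detection of Myh6 across depths was read against B cell-rule cells. Before thinning, Myh6 was detected in 76.0% of smooth muscle-low cells (median 3630 UMIs), 32.2% of smooth muscle-positive cells (median 8601 UMIs), 12.9% of other smooth muscle-rule cells (median 6838 UMIs) and 4.93% of B cell-rule cells (median 2663 UMIs). With every cell thinned to 2000 UMIs the shares were 52.2%, 11.6%, 4.25% and 2.36%, after leaving out 39 smooth muscle-low and 3 smooth muscle-positive shallower cells. Tnnt2 was detected in 44.3% of other smooth muscle-rule cells and 13.1% of B cell-rule cells, and after thinning in 20% and 8.45%. A low share of cells with these transcripts was present also in B cell-rule cells, while the shares in selected cells were set by the rule.

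Actc1, the cardiac actin, was 3855, 1668, 3123, 2527, 2483 and 2384 CPM in smooth muscle-low cells (2731 ± 814, SD, n = 5) and 516, 919, 623, 415, 282 and 0 CPM in smooth muscle-positive cells (551 ± 241, SD, n = 5). In other smooth muscle-rule cells Actc1 was 152, 212, 49.0, 117, 95.7 and 43.4 CPM, below the smooth muscle-positive cells in each of the 5 samples with at least 10 of them. In the remaining cells it was 107, 24.9, 26.7, 91.8, 76.8 and 14.4 CPM. Of the 3 marker genes Actc1 alone was not used by the rule.

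Myl7, the atrial regulatory light chain, had the widest ratio between smooth muscle-low and other smooth muscle-rule cells. It was 8606, 12240, 13497, 8250, 12710 and 4453 CPM in smooth muscle-low cells (11061 ± 2448, SD, n = 5). Smooth muscle-positive cells had Myl7 at 564, 64.2, 2571, 485, 267 and 0 CPM, and other smooth muscle-rule cells at 149, 22.0, 89.4, 206, 250 and 14.6 CPM. The ranges overlapped, though within each of the 5 larger samples the smooth muscle-positive cells were higher. In control 3, where Myl7 in smooth muscle-positive cells was highest, 3 of 19 such cells had an atrial share of at least 1%.

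**Figure D2:**
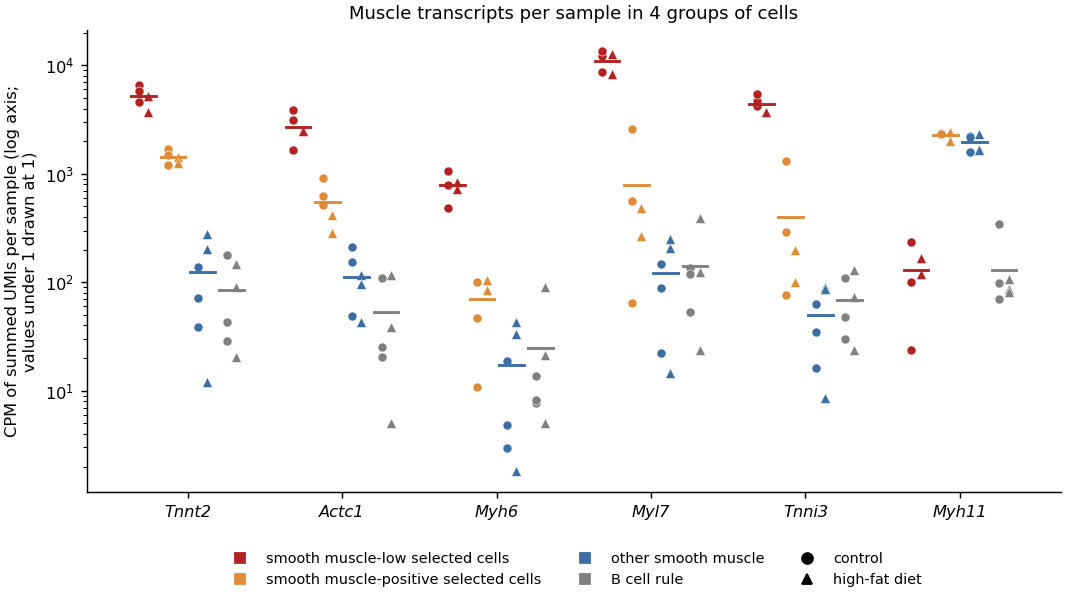
Levels of marker genes in CPM on a log axis, in 4 groups of cells. Points are samples with at least 10 cells of the group (circles control, triangles high-fat diet) and bars are their means, and Tnni3, which the rule did not use, lies at 3681 to 5491 CPM in smooth muscle-low cells, above Tnni3 in every other group.

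Ratios of summed levels were taken between smooth muscle-low cells and other smooth muscle-rule cells after 10 CPM was added to both, for genes with at least 20 CPM in 1 of the groups. As the selection sorted the cells, these folds are a description with no test. At least 2-fold higher were 324 of 6420 genes (5.05%), and 502 (7.82%) were at least 2-fold lower. Of the 37 cardiomyocyte-list genes 34 were measured, and 27 were at least 2-fold higher and 1 lower. Their median log2 ratio was 3.36 against -0.18 over all genes. The list holds the rule genes Myh6 and Tnnt2, so the count and median partly follow from the selection. The widest ratios after Myl7 (66.1-fold) were those of Myl4, the atrial essential light chain (64.4-fold), Tnni3 (61.5-fold) and Tnnc1, the calcium-binding troponin (32.2-fold).

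Among sarcomere genes, 17 of 21 measured (22 listed) were at least 2-fold higher in smooth muscle-low cells and 1 was lower. This list, too, holds the rule genes Myh6 and Tnnt2. Tnni3 was 4245, 4740, 5491, 3681, 3695 and 3086 CPM in these cells and at most 89.6 CPM in other smooth muscle-rule cells of any sample. Csrp3, a Z-disc protein of striated muscle, was 1830, 1698, 2142, 960, 1285 and 491 CPM against at most 136 CPM. Ttn, the giant spring protein of the sarcomere, was 117, 179, 78.9, 429, 166 and 105 CPM, and other smooth muscle-rule cells of control 1 had 62.4 CPM. Tpm1, a tropomyosin shared by cardiac and smooth muscle, was 9671, 5946, 6957, 4433, 6575 and 3892 CPM against 1768 to 2403 CPM, so the difference was smaller than for troponins.

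Atrial-list genes had wider ratios than ventricular-list genes. Of 12 atrial-list genes 8 were measured and 5 were at least 2-fold higher, with a median log2 ratio of 3.74. Sln, the sarcoplasmic calcium pump regulator of atrium, was 7516, 5990, 8716, 4615, 3558 and 2770 CPM, against at most 540 CPM in other smooth muscle-rule cells. Nppa varied most between samples, at 208, 1846, 6089, 4029, 2338 and 35.1 CPM, while other smooth muscle-rule cells had 0.869 to 279 CPM. In control 1 and high-fat diet 3 its level in smooth muscle-low cells did not exceed the highest sample of other smooth muscle-rule cells. Mybphl, a myosin-binding protein found in atrial muscle, was 441, 330, 654, 221, 339 and 140 CPM, against 0.735 to 4.72 CPM.

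Ventricular genes were uneven between samples. Myl2, the ventricular regulatory light chain, was detected in 3.37% of smooth muscle-low cells and was 0, 125, 0, 93.5, 79.4 and 35.1 CPM. Myl3, the ventricular essential light chain that slow skeletal muscle also uses, was 350, 441, 22.6, 116, 108 and 105 CPM, and in control 1 it was higher in other smooth muscle-rule cells, at 407 CPM. Of 8 ventricular-list genes 4 were measured, 2 at least 2-fold higher and 1 lower. Against the remaining cells all 3 measured were at least 2-fold higher (1355 against 74.5 CPM summed). Their median log2 ratio was 3.02 against -0.16 over all genes, and the share of all genes that were 2-fold higher is not given here. Pln, which is on the calcium-handling list too, made up 1040 of the 1355 CPM. Of 10 nodal-list genes 2 were measured and neither was higher, and Hcn4, the pacemaker channel, had 3 UMIs in all 267 cells. Of 20 skeletal-muscle-list genes 10 were measured, 3 higher and 5 lower. Acta1, the skeletal actin, was 1103 CPM in smooth muscle-low cells of control 1 and 2348 CPM in other smooth muscle-rule cells of the same sample, so in this sample it was lower in the selected cells.

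Genes of calcium handling and of energy supply were also higher in the smooth muscle-low cells. Of 12 calcium-handling genes measured (14 listed), 7 were at least 2-fold higher and 2 lower. Pln, the brake of the calcium pump, was 1895, 1317, 1376, 834, 859 and 561 CPM in smooth muscle-low cells against 34.7 to 53.8 CPM in other smooth muscle-rule cells. Atp2a2, the pump itself, was 169, 505, 778, 467, 751 and 351 CPM against 221 to 378 CPM, and in control 1 it was lower than in other smooth muscle-rule cells. Ryr2, the calcium release channel, was 0, 50.5, 45.1, 72.7, 86.6 and 0 CPM against 13.3 to 35.5 CPM.

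Of 21 fatty acid and energy genes measured (26 listed), 14 were at least 2-fold higher and 0 lower. Fabp3, the fatty acid carrier of heart, was 2064, 1789, 1657, 1586, 1602 and 1157 CPM, against 22.9 to 61.7 CPM. Mb, which stores oxygen, was 3985, 3204, 6472, 2248, 938 and 2945 CPM against 12.6 to 414 CPM. Of 90 measured nuclear genes of the respiratory chain (96 listed), 55 were at least 2-fold higher and 1 lower, with a median log2 ratio of 1.22. The 13 mt- genes, on which the 20% limit acts, had 0 higher and 0 lower with a median log2 ratio of 0.08 among the kept cells.

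Cardiac transcription factors did not share this pattern. Of 11 measured (15 listed), 1 was at least 2-fold higher and 3 were lower, with a median log2 ratio of -0.51. Against the remaining cells the sign turned, with 9 measured, 1 higher, 0 lower and a median of 0.47 against -0.16 over all genes. Tbx20 was 13.0, 37.1, 56.4, 34.1, 43.3 and 0 CPM in smooth muscle-low cells against 1.80 to 23.2 CPM in other smooth muscle-rule cells. Nkx2-5 was 13.0, 27.0, 78.9, 32.6, 21.7 and 0 CPM against 0.0668 to 4.34 CPM, above them in each of the 5 larger samples. These levels rest on 46 Tbx20 and 41 Nkx2-5 UMIs in all. Mef2c, which smooth muscle also uses, was lower, at 45.1 to 182 CPM against 193 to 334 CPM.

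Genes of other cell types were read in the same cells. Of 15 smooth muscle-list genes, 3 of them used in the split, 14 were at least 2-fold lower in smooth muscle-low cells, where Acta2, the smooth muscle actin, was 1223 CPM pooled against 10043 CPM. Of 8 fibroblast genes 1 was at least 2-fold higher and 0 lower, and their summed level was 7639 CPM pooled against 5649 CPM in other smooth muscle-rule cells and 11493 CPM in the remaining cells. All 3 erythroid genes were at least 2-fold higher by pooled level, but by sample their sum was 506, 51587, 913, 9821, 8877 and 2384 CPM against 1312, 875, 2467, 2716, 6423 and 4110 CPM, higher in 3 of 6 samples, with control 2 standing apart. Of 7 macrophage genes 0 were higher and 1 was lower, and the summed level was 2188 CPM against 1419 CPM. The part of these other cells' transcripts in the results was not tested.

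Smooth muscle-positive cells differed from other smooth muscle-rule cells in few genes. At least 2-fold higher were 23 of 6134 genes (0.375%), and 22 (0.359%) were lower. Of 26 cardiomyocyte-list genes measured, 10 were at least 2-fold higher and 0 lower (median log2 ratio 0.80 against -0.01 over all genes), and of 87 nuclear respiratory chain genes measured 0 were higher. Tnnt2 (8.71-fold), a rule gene, and Actc1 (3.41-fold) had the widest ratios. Tnnt2 and Myh6 are on the cardiomyocyte list, so its count and median here partly follow from the rule. Des, the desmin filament gene of all muscle, was 1195, 1298, 709, 897 and 640 CPM in the 5 larger samples against 356, 168, 385, 255 and 240 CPM in other smooth muscle-rule cells. Actg2, the enteric-type smooth muscle actin, was 579, 1358, 945, 757 and 670 CPM against 274, 728, 252, 401 and 417 CPM. Both were higher in each of these 5 samples, without having been used by the rule.

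Most of the smooth muscle genes were as high in these cells as in other smooth muscle. Of 15 smooth muscle-list genes 1 was at least 2-fold higher and 1 lower, with a median log2 ratio of 0.31. Myh11 was 2377, 2330, 2327, 2007 and 2427 CPM in the 5 larger samples, against 1580 to 2328 CPM. Hspb6, a small heat shock protein of muscle (445 against 265 CPM pooled), and Pdlim3, a muscle LIM protein (392 against 220 CPM), were also higher. Selected cells had to have 0 Ptprc and Pecam1 UMIs and other smooth muscle-rule cells did not, so lower leukocyte and endothelial transcripts partly follow from the rule (endothelial list 64.6 against 243 CPM). Among the lowest were Ccl21a, a lymphoid chemokine (48.3 against 169 CPM), Cd74, the MHC class II chaperone (478 against 1294 CPM), and Fn1, fibronectin (249 against 600 CPM). Taking all 1112 selected cells as 1 class against other smooth muscle-rule cells, 50 of 6125 genes (0.816%) were at least 2-fold higher and 23 (0.376%) lower.

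The genes whose level was most like that of Myh6 over the 18 sample groups (selected, other smooth muscle-rule and remaining cells in each of 6 samples) were ranked among 2403 genes by Spearman's rho. They were Myl7 (0.981), Tnni3 (0.977), Tnnc1 (0.975), Myl4 (0.969), Tnnt2 (0.946), Mybphl (0.928), Fndc5 (0.922), Cox6a2 (0.920), Ckmt2 (0.899) and Cox7a1 (0.895). Fndc5 is the precursor of irisin, Ckmt2 is the mitochondrial creatine kinase of striated muscle, and Cox6a2 and Cox7a1 are muscle forms of respiratory chain subunits. The selected groups were chosen by Myh6 and Tnnt2, so the rule set part of this ranking, and Tnnt2 is in it as a rule gene. The points also share libraries and depth, so these values are given without a test.

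The selected cells were spread unevenly over the samples. Controls 1 to 3 held 131, 178 and 39 of them, which were 2.00% (95% Wilson interval 1.69 to 2.37), 1.07% (0.928 to 1.24) and 0.468% (0.342 to 0.639) of kept cells. High-fat diet 1 to 3 held 344, 414 and 6, which were 3.31% (2.99 to 3.68), 5.20% (4.74 to 5.71) and 0.0624% (0.0286 to 0.136). High-fat diet samples had both the highest and the lowest share. Smooth muscle-positive cells were 117, 115, 19, 209, 384 and 1, and smooth muscle-low cells 14, 63, 20, 135, 30 and 5, so the mixture of the kinds also differed, from 92.8% smooth muscle-positive in high-fat diet 2 to 48.7% in control 3 and 1 of 6 in high-fat diet 3. The intervals cover counting error only.

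Each matrix joined barcodes with the suffix 1 or 2. Cell Ranger adds such suffixes when it joins libraries, but the labels do not state what they stand for here. High-fat diet 2 had 376 of its 414 selected cells under suffix 1, where they were 8.0% of kept cells, against 1.17% under suffix 2. Control 1 had 3.99% under suffix 2 and 1.06% under suffix 1. As a share of the cells that met the smooth muscle rule, smooth muscle-positive cells were 3.25%, 4.94%, 1.14%, 7.10%, 10.0% and 0.0421% in the 6 samples. By suffix this share ran from 0 of 848 cells in high-fat diet 3 to 52 of 256 (20.3%) in control 2, both under suffix 2. For the count of 0, 3 counts would allow up to 0.354%.

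**Figure D3:**
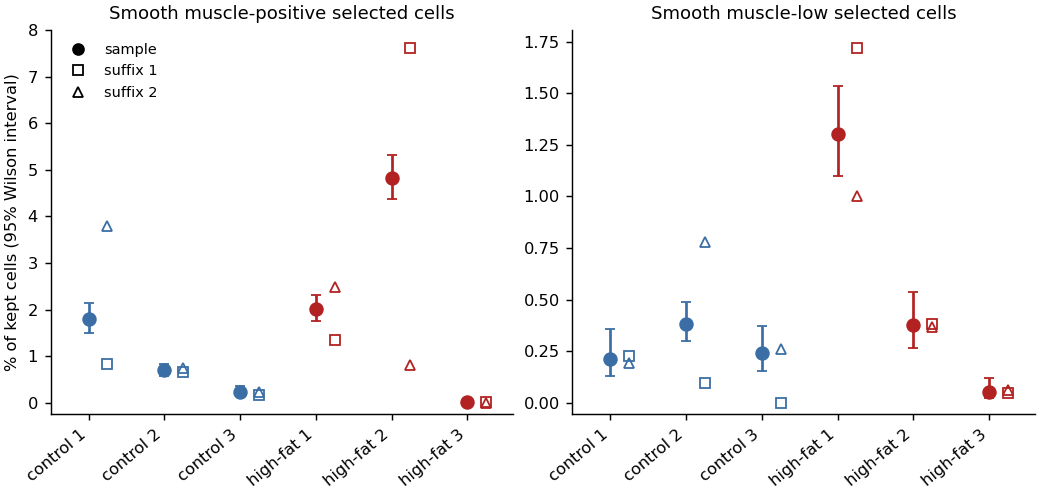
Shares of kept cells by sample, with 95% Wilson intervals, for smooth muscle-positive (left) and smooth muscle-low cells (right), with the barcodes of suffix 1 and 2 as open symbols. High-fat diet 2 is highest on the left (4.83%), high-fat diet 1 is highest on the right (1.30%), and high-fat diet 3 is lowest on both.

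The shares of the diets overlapped. Selected cells were 1.18 ± 0.771% of kept cells in controls and 2.86 ± 2.60% under high-fat diet (SD, n = 3 each), a difference of 1.68 percentage points (exact two-sided permutation p = 0.4, where 3 against 3 samples cannot go below 0.1). Leaving out high-fat diet 2 gave 0.508 points and leaving out high-fat diet 3 gave 3.08. Under suffix 1 alone the difference was 3.06 points and under suffix 2 it was -0.434. Smooth muscle-positive cells were 0.903 ± 0.800% and 2.28 ± 2.42% (difference 1.38, exact permutation p = 0.5, n = 3 each), with 0.109 points without high-fat diet 2 and 2.52 without high-fat diet 3. Smooth muscle-low cells were 0.278 ± 0.0896% and 0.577 ± 0.648% (difference 0.299, exact permutation p = 0.8, n = 3 each), and without high-fat diet 1 the difference was -0.0634. As a share of smooth muscle-rule cells the smooth muscle-positive cells were 3.11 ± 1.90% and 5.72 ± 5.13% (difference 2.61, exact permutation p = 0.5, n = 3 each), with 0.460 without high-fat diet 2 and 5.45 without high-fat diet 3.

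Gene levels by diet were tested on the UMI sums of selected cells, leaving out high-fat diet 3 with its 6 cells, so that 3 controls stood against 2 high-fat diet samples. By edgeR's quasi-likelihood test 4 of 9630 genes (0.0415%) passed an adjusted p of 0.05, all higher under high-fat diet, while the groups did not overlap for 1970 genes (20.5%) and 549 had an unadjusted p under 0.05. Cebpb, which encodes a transcription factor induced in inflammation, was 6.15, 17.4 and 13.9 CPM in controls and 144 and 129 CPM under high-fat diet (scaled by TMM; log2 fold change 3.52, SE 0.35, adjusted p = 0.00167). Alyref, an mRNA export factor, was 18.4, 17.4 and 37.2 against 91.8 and 101 CPM (log2 fold change 2.23, SE 0.30, adjusted p = 0.0143). Jchain, the joining chain of secreted antibodies, was 83.8, 68.9 and 116 against 510 and 381 CPM (log2 fold change 2.37, SE 0.27, adjusted p = 0.00384). Mmp3, a matrix protease of fibroblasts, was 43.8, 23.5 and 18.6 against 132 and 208 CPM (log2 fold change 2.43, SE 0.32, adjusted p = 0.0157).

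The same 4 genes were read in unselected cells of the same samples, where Cebpb and Alyref were higher under high-fat diet as well. Cebpb in other smooth muscle-rule cells was 13.5, 14.3 and 19.7 CPM in controls and 151, 135 and 96.3 CPM under high-fat diet. In B cell-rule cells Cebpb was 7.74, 6.31 and 8.93 against 35.6, 56.7 and 33.5 CPM. Alyref was 23.9, 19.4 and 34.7 against 87.7, 107 and 98.7 CPM in other smooth muscle-rule cells and 20.6, 17.1 and 41.2 against 101, 102 and 110 CPM in B cell-rule cells. High-fat diet 3, left out of the fit, was on the high side for both genes. Jchain was 525, 169 and 1005 against 1373, 127 and 249 CPM in other smooth muscle-rule cells, and Mmp3 was 117, 22.0 and 5.81 against 79.0, 259 and 34.4 CPM, with overlap of the groups for each. With no mt- limit 0 genes passed (edgeR; 310 at an unadjusted p under 0.05), Cebpb having an adjusted p of 0.0837 (4.21e-25 to 0.0837 over its 12 alternatives), and DESeq2 called 15 genes with the limit. High-fat diet 3 had 26 selected cells with no limit, above the minimum of 10, so that fit may rest on a different set of samples. Without control 2 edgeR called 10 genes. Without high-fat diet 1 it called 36, in a fit of 3 controls and 1 high-fat diet sample whose spread came from the controls alone, the lone sample being assumed to vary like them.

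In smooth muscle-positive cells edgeR called 2 of 9195 genes (0.0218%), and the groups did not overlap for 1782 (19.4%). The called genes were Cebpb (log2 fold change 3.58, adjusted p = 6.97e-04) and Alyref (log2 fold change 2.40, adjusted p = 0.00269). Leaving out control 1 or 2 gave 9 and 15 calls, and leaving out high-fat diet 1 or 2, again with 1 sample in that arm, gave 46 and 6. In smooth muscle-low cells edgeR called 0 of 2085 genes (0%), with 241 at an unadjusted p under 0.05, 631 (30.3%) whose groups did not overlap, and 16 called by DESeq2. Leaving out control 1, 2 or 3 gave 6, 4 and 3 calls by edgeR there, and leaving out high-fat diet 1 or 2, with the other as the lone sample, gave 14 and 30.

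In smooth muscle-low cells the genes of smallest p did not pass by edgeR and are given as values, with DESeq2's adjusted p beside them. Besides Tcap, Cox6a2, Cox8b and H2-Aa, DESeq2 called Pln, Sln, Mb, Cd74, H2-Ab1, H2-Eb1, Nbl1, Ifi27l2a, Hspa5, Retnla, Cd52 and Eln there. Tcap, a cap protein of the Z-disc, was 2576, 4494 and 2975 CPM in controls and 895 and 1237 CPM under high-fat diet (log2 fold change -1.66, edgeR adjusted p = 0.0830, DESeq2 2.64e-04). Cox6a2 was 2829, 3550 and 2988 against 1519 and 1460 CPM (log2 fold change -1.07, edgeR adjusted p = 0.123, DESeq2 0.00423), and Cox8b, another muscle subunit of the respiratory chain, was 1549, 1568 and 1520 against 906 and 558 CPM (log2 fold change -1.06, edgeR adjusted p = 0.163, DESeq2 0.0387). H2-Aa, an MHC class II chain of antigen-presenting cells, was 1355, 991 and 1338 against 334 and 172 CPM (log2 fold change -2.21, edgeR adjusted p = 0.0810, DESeq2 3.29e-06). Cebpb was 14.9, 23.5 and 13.0 against 201 and 120 CPM (log2 fold change 3.10, edgeR adjusted p = 0.0828), and DESeq2 gave it no adjusted p.

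By edgeR no gene of the cardiomyocyte, sarcomere, calcium, energy or respiratory chain lists passed in any of the 3 fits, whereas DESeq2 called Tcap, Cox6a2, Cox8b, Pln, Sln and Mb of these lists in smooth muscle-low cells, all lower under high-fat diet. In smooth muscle-low cells 80 of 81 tested nuclear respiratory chain genes were lower under high-fat diet, 57 of them without overlap of the groups beside 30.3% of all genes, with a median log2 fold change of -0.46 against 0.01 over all genes. Of 28 cardiomyocyte-list genes tested there, 21 were lower and 7 higher, with a median of -0.39. Of 11 unfolded protein response genes tested there, 10 were higher, with a median of 0.87. The summed list of 13 was higher under high-fat diet in unselected cells too, at 1773, 1692 and 1268 against 2429, 4154 and 2589 CPM in other smooth muscle-rule cells and 2174, 1961 and 1901 against 3718, 4399 and 4047 CPM in the remaining cells. In the same cells 9 of 11 smooth muscle-list genes were higher (median 1.06) and 5 of 8 fibroblast genes were higher (median 0.45). The summed smooth muscle list was 5517, 1179 and 2255 CPM in controls against 3261 and 6366 CPM, and the fibroblast list 4634, 8598 and 6855 against 7339 and 9339 CPM, with overlap of the groups for both, and their part in these values was not tested. Over all selected cells 27 of 36 cardiomyocyte-list genes were lower and all 8 immediate early genes were lower (median -1.15), beside shares of smooth muscle-positive cells of 89.3%, 64.6% and 48.7% in the controls and 60.8% and 92.8% in high-fat diet 1 and 2.

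The limit of 20% mt- UMIs removed the strongest expressers of Myh6. Without it 1343 cells met the rule, and the limit removed 231 of them (17.2%), against 514 of 16403 other smooth muscle-rule cells (3.13%) and 870 of 43282 remaining cells (2.01%). Among smooth muscle-low cells it removed 212 of 479 (44.3%), and among smooth muscle-positive cells 19 of 864 (2.20%). By Myh6 UMIs it removed 17 of 654 cells with 0 (2.60%), 19 of 266 with 1 (7.14%), 57 of 238 with 2 to 4 (23.9%) and 138 of 185 with 5 or more (74.6%). Cells with 5 or more Myh6 UMIs were thus mostly absent from the 1112. Tnnt2, the other rule gene, did not follow Myh6 in UMIs per cell. In smooth muscle-low cells the median was 11 Tnnt2 UMIs in removed and 13 in kept cells, against 7 and 2 Myh6 UMIs. Median Tnnt2 was 7 UMIs in both for smooth muscle-positive cells, and 10 and 8 over all selected cells. As CPM over the UMIs that were not mt-, Tnnt2 was higher in removed smooth muscle-low cells, at 9513 against 4666.

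The loss differed by sample. Of smooth muscle-low cells the limit removed 3 of 17, 49 of 112 and 30 of 50 in controls 1 to 3 and 79 of 214, 31 of 61 and 20 of 25 in high-fat diet 1 to 3, that is 17.6% to 80.0%. High-fat diet 3 kept 6 of 26 selected cells, the largest loss of any sample (76.9%). With other limits, 41.8% of the smooth muscle-low cells were kept at 10%, 73.5% at 40% and 86.6% at 60%. Of cells with 5 or more Myh6 UMIs, 13.0%, 48.6% and 74.6% were kept at those limits.

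**Figure D4:**
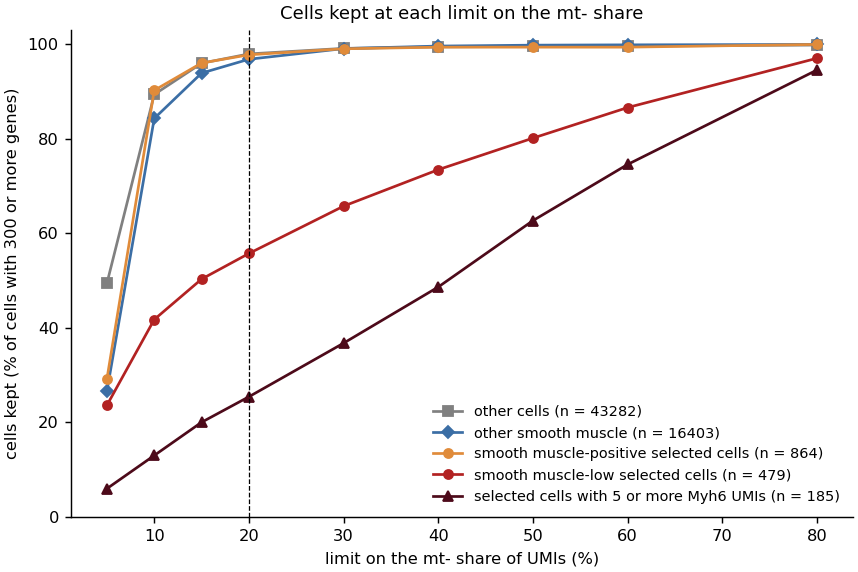
Share of cells kept against the mt- limit, for both kinds of selected cells, selected cells with 5 or more Myh6 UMIs, other smooth muscle-rule cells and other cells. At 20% (dashed line), smooth muscle-positive cells are at 97.8%, other smooth muscle-rule cells at 96.9%, smooth muscle-low cells at 55.7% and cells with 5 or more Myh6 UMIs at 25.4%.

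Median mt- shares without the limit showed which cells it met. In smooth muscle-low cells the sample medians were 4.47%, 16.0%, 29.4%, 10.6%, 20.2% and 35.9%, and in other smooth muscle-rule cells they were 5.19% to 8.48%. The mean over samples was 19.4% against 6.55%, a difference of 12.9 points that was positive in 5 of 6 samples, control 1 being the exception (exact two-sided sign-flip permutation p = 0.0625, smallest possible 0.03125). For all selected cells the medians were 5.99%, 8.43%, 9.41%, 6.27%, 5.88% and 33.5%, a mean of 11.6% and a difference of 5.03 points, positive in 5 of 6 samples (exact sign-flip permutation p = 0.0938). This difference was 1.03 points without high-fat diet 3. By diet the sample medians were 7.94 ± 1.76% in controls and 15.2 ± 15.8% under high-fat diet (difference 7.28 points, exact permutation p = 0.9, n = 3 each), and without high-fat diet 3 the difference was -1.87.

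Smooth muscle-low cells removed by the limit were compared with those kept, here in CPM over the UMIs that were not mt-. The removed cells had a median of 46.8% mt- UMIs, 1435 other UMIs and 798 genes, and the kept cells 5.88%, 3429 and 1375. Every selected cell had to hold at least 5 UMIs of Myh6 and Tnnt2 whatever its size, so their level over the other UMIs is pushed up where those UMIs are fewer. Myh6 was 9231 CPM in removed cells and 899 CPM in kept cells, a 10.3-fold ratio, and the part of the rule in it was not tested. Atp2a2 was 6810 against 543 (12.5-fold), Ttn 3435 against 315 (10.9-fold) and Ryr2 668 against 65.7 (10.2-fold). Myl7 was 18220 against 10629 (1.71-fold) and Nppa 11264 against 3404 (3.31-fold), while the fibroblast proteoglycan gene Dcn was 773 against 2764 (0.280-fold). All 36 cardiomyocyte-list genes with at least 10 UMIs in the kept cells, the rule genes Myh6 and Tnnt2 among them, had higher levels in the removed cells. The ratios ran from 1.03-fold (Myl2) to 12.5-fold (Atp2a2), with a median of 2.13-fold. The median over all 9080 genes with at least 10 UMIs in the kept cells was 0.959-fold, and 47.2% of them were higher in the removed cells. Of the 267 kept cells, 106 had an atrial share under 1%, and their part in these ratios was not tested.

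Among the 36 cardiomyocyte-list genes the ratio of removed to kept cells tended to be larger for those with long transcripts. In a split chosen after the values were seen, the 12 of these 36 genes with an annotated transcript of at least 3000 bases had a median of 6.08-fold and the 24 shorter ones 2.00-fold. Spearman's rho of ratio and length was 0.576 over the 36 genes and 0.134 over 8708 genes, given as a description across genes, which are not replicates. Short transcripts such as those of Myl7 differed less between kept and removed cells than long ones such as those of Myh6, Ttn and Ryr2. Casq2 (2556 bases, 12.4-fold) and Mef2c (6277 bases, 1.45-fold) went the other way.

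The change ran over the whole range of mt- shares. In smooth muscle-low cells with 0 to 5%, 5 to 10%, 10 to 20%, 20 to 40%, 40 to 60% and 60 to 100% mt- UMIs (113, 87, 67, 85, 63 and 64 cells), Myh6 was 358, 748, 2814, 6956, 11959 and 12357 CPM over the other UMIs. Ttn was 51.3, 329, 1111, 2201, 4169 and 6610 CPM. Myl7 was 8374, 11200, 16692, 20516, 18142 and 9751, highest between 20 and 40%, and Dcn was 3177, 2636, 1694, 717, 738 and 1053. Ttn, which the rule did not use, was higher in each successive band, already among kept cells, and so was Myh6, which the rule did use. Heart muscle is known for its many mitochondria, and what a high mt- share stood for in these cells was not tested.

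**Figure D5:**
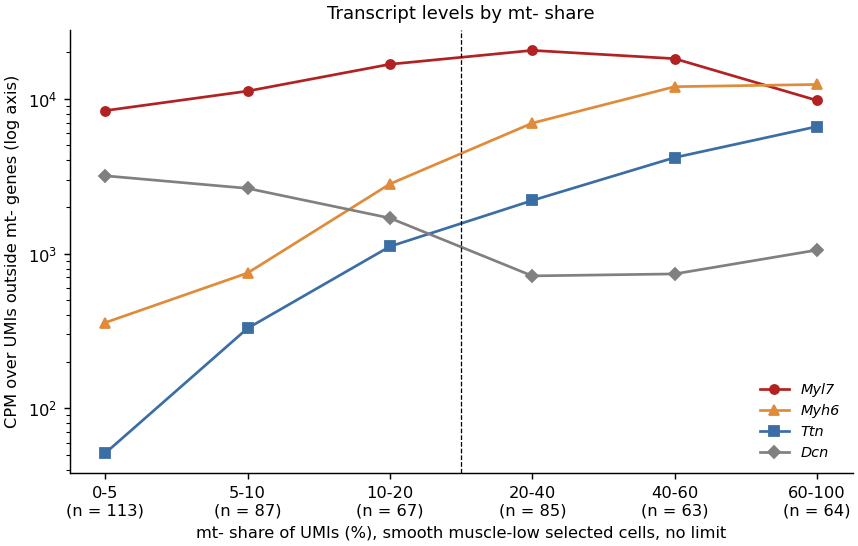
Levels of Myh6, Ttn, Myl7 and Dcn in CPM over the UMIs that were not mt-, on a log axis, in smooth muscle-low cells by band of mt- share. Myh6 goes from 358 in the lowest to 12357 in the highest band, Myl7 peaks at 20516 between 20 and 40%, and Dcn is 717 to 1053 above the 20% limit (dashed line).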

How the data were processed

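Single-cell 3′ RNA libraries of 6 mouse aorta samples were analysed. The authors deposited raw UMI counts per gene and cell (27998 genes, 62838 cells), made with Cell Ranger 3.0 on mm10 per the submitters' processing notes. The annotation used, and any filter on cells before deposit, are not given in the sources used here. Cells with at least 300 genes (61028) and under 20% mt- UMIs (59413) were kept. The selected cells, gene lists and tests were chosen with earlier results of these data known. Groups of cells were the selected cells, other smooth muscle-rule cells (at least 5 UMIs of Myh11, Cnn1 and Lmod1), the remaining cells and, within these, B cell-rule cells.

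Levels are UMIs summed per sample and group, as counts per 1000000 UMIs (CPM). Ratios use a prior of 10 CPM. Diet was tested on summed counts of samples with at least 10 cells with edgeR 4.0.16 (quasi-likelihood, TMM, filterByExpr, Benjamini-Hochberg over all genes tested), with DESeq2 1.42.0 as an alternative, in R 4.3.3. Shares and mt- medians were tested by exact permutation in Python 3.11.15 with scipy 1.17.1. Tested on simulated data for the fit of all selected cells (9630 genes), the procedure recovered 25% of genes changed 2-fold and 99% of those changed 4-fold, with 4 false calls. For smooth muscle-positive cells (9195 genes) these were 20%, 98% and 9, and for smooth muscle-low cells (2085 genes) 16%, 81% and 5.

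Named genes were the listed markers, the 15 highest and 15 lowest ratios with at least 100 CPM and the same side in every sample with at least 10 cells, called diet genes (or the 5 smallest p on each side), and the 10 genes most like Myh6. Doublet scores came from Scrublet in scanpy 1.11.5 for each barcode suffix of a sample (expected rate 0.06). A score over 0.25 was found in 29 of the 1112 selected cells, which were kept in the main values. Gene positions and transcript lengths are from GRCm38, and promoter sequences are from RefSeq in the same assembly. Total UMIs per sample bound the precision, and Wilson intervals cover counting error only.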

Additional observations from a re-analysis of the deposited data

How the results depend on the processing

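Numbers of genes called by diet varied with the processing. In all selected cells 4 genes were called by edgeR, 15 by DESeq2, 129 with no filter on low counts, 0 with no mt- limit, and 3 to 36 with 1 sample left out. In smooth muscle-positive cells 2 were called, 11 by DESeq2, 101 with no filter, and 3 to 46 with 1 sample left out. In smooth muscle-low cells 0 were called, 16 by DESeq2, 48 with no filter, and 3 to 30 with 1 sample left out. Jchain had a log2 fold change of -0.57 (adjusted p = 1.00) when the rule asked for at least 3 UMIs, and Jchain, Mmp3 and Alyref passed in 9, 6 and 8 of 12 alternatives, with adjusted p up to 1.00, 0.910 and 0.359. The causes were not tested.

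With the replicate block, 9, 1 and 45 genes were called in the 3 fits. The replicate block left the difference in share at 1.68 points (exact permutation p = 0.5). Same-numbered samples correlated at -0.314, -0.215 and 0.180 in their deviations from the group means (5978 genes), so the numbers were not taken as pairs.

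With barcodes of suffix 2 alone, an alternative chosen after the data were seen, 3 differences in share by diet changed sign: -0.434 points for all selected cells, -0.501 for smooth muscle-positive cells and -4.31 for these as a share of smooth muscle-rule cells. The share of smooth muscle-low cells did not (0.0673). With 1 sample left out the share of smooth muscle-low cells differed by -0.0634 to 0.561 points. The mt- share of all selected cells against other smooth muscle-rule cells differed by -0.282 points within the 20% limit and by 10.2 points by means of cells (exact permutation p = 0.03125). For smooth muscle-low cells it was -0.568 within the limit, 18.5 by means of cells and 13.1 without doublets (exact permutation p = 0.03125 for both of the last). Asking for at least 1000 genes gave 2.66 points for all selected cells and 6.74 for smooth muscle-low cells (exact permutation p = 0.4375 and 0.125). Asking for at least 3 UMIs of Myh6 and Tnnt2 gave 2.84 and 6.09 points (exact permutation p = 0.28125 and 0.21875). The difference of mt- share by diet was -1.87 to 11.9 points with 1 sample left out. The main fits by gene rest on 3 control and 2 high-fat diet samples, and high-fat diet 3, with 6 cells, gave no value. With no mt- limit it had 26 selected cells, so the samples of that fit may differ as well as the limit.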
